A study of Danio rerio with 20 samples.

Results

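The genes examined here encode the phototransduction cascade downstream of the opsins, together with a few proteins of the photoreceptor disc rim and of the visual cycle. They were taken by gene symbol from a list of 42, of which 41 had a row in a count table of 32520 genes. The listed symbol cnga1 had no row, and all 41 of the others were among the 23121 genes tested. Wild-type zebrafish (Danio rerio) larvae were kept from day 4 to day 5 after fertilisation in water that held an extract of secondary effluent from a wastewater treatment plant (SEC), at a final strength labelled 20x. The control larvae of each campaign (CTRL) are labelled only as controls, and the labels do not say whether they received the solvent of the extract. The extracts came from the sampling campaigns JUN20 (June) and OCT20 (October). Each of the 4 groups, CTRL JUN20, SEC JUN20, CTRL OCT20 and SEC OCT20, held 5 pools of 10 whole larvae, all taken at 5 days.

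In the vertebrate photoreceptor, light activates an opsin, the opsin activates the G protein transducin, and transducin releases the inhibition of a phosphodiesterase that breaks down cyclic GMP. Cyclic nucleotide-gated channels in the outer segment then close and the cell hyperpolarises. Opsin kinases and arrestins silence the opsin, the RGS9 protein speeds the shut-off of transducin, and guanylate cyclases with their calcium-sensing activators refill cyclic GMP. Rods, which serve dim light, and cones, which serve daylight and colour, use separate gene copies for many of these steps, and larval zebrafish vision is driven mainly by cones.

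Library totals ran from 28832858 to 59922353 counts. Values below are CPM, counts as a share of the library total scaled with TMM factors, a measure that does not correct for gene length, so levels are compared between groups and not between genes. Changes are log2 SEC over CTRL with their standard error, from edgeR's quasi-likelihood F test, and a change is called where the Benjamini-Hochberg adjusted p over all tested genes was under 0.05. The October libraries fell on 2 sides by 9 genes outside the list, each with a gap of at least 3-fold below which the libraries of the side called low lay. On that side were SEC replicates 4 and 5 together with CTRL replicates 1, 3 and 5, and the labels give no source for this division. The larvae were sequenced whole, so fewer photoreceptors and less RNA per photoreceptor cannot be told apart, and nothing in the labels ties the pools to separate spawns, so p-values measure the spread between these pools.

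In June, 9 of 41 members were called, 8 lower (gnat2, gngt2a, grk1a, grk1b, guca1a, guca1e, rgs9a and prph2b) and 1 higher (guca1g). Over all genes tested 10.8% were called, 5.92% higher and 4.90% lower; with library totals in place of TMM factors the genes called were 1800 higher and 724 lower, against 1368 and 1133. In October 17 members were called, 14 lower and 3 higher (arr3a, arr3b and guca1c), where 18.0% of all genes were called, 9.54% higher and 8.49% lower. The 14 were the 8 lower in June and gnat1, gnb3b, gngt1, gngt2b, sagb and rlbp1a. A further 23 members were called in neither campaign. The median change over the members was -0.13 in June and -0.13 in October, against -0.0049 and -0.014 over all genes tested. Other gene lists, read further below, also had negative medians in June: -0.13 for inner retinal neurons, -0.17 for lens, -0.10 for brain neurons and -0.039 for Müller glia. In October these were -0.031, -0.095, -0.034 and 0.097. Most called changes of the members were modest, their median absolute log2 change being 0.39 in June and 0.40 in October, and 1 and 2 of them reached 2-fold.

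The June count depended on single libraries. It fell to 5 without SEC replicate 2, SEC replicate 5 or CTRL replicate 2, and to 4 without CTRL replicate 3 or CTRL replicate 5. Over all genes tested the June calls also fell whichever June library was left out, from 2501 to between 1826 and 2216. The calls of gngt2a, grk1b, guca1g and rgs9a held whichever June library was left out, whereas those of gnat2, grk1a, guca1a, guca1e and prph2b were each lost in at least 6 of 10 such fits. In October 16 of 17 calls held in every such fit, the exception being guca1c. All 5 SEC pools lay below all 5 CTRL pools for 10 members in June and above them for 1, where 6.04% and 6.54% of all genes did so. In October this held for 9 members below and 2 above, against 4.70% and 6.43% of all genes.

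**Figure D1:**
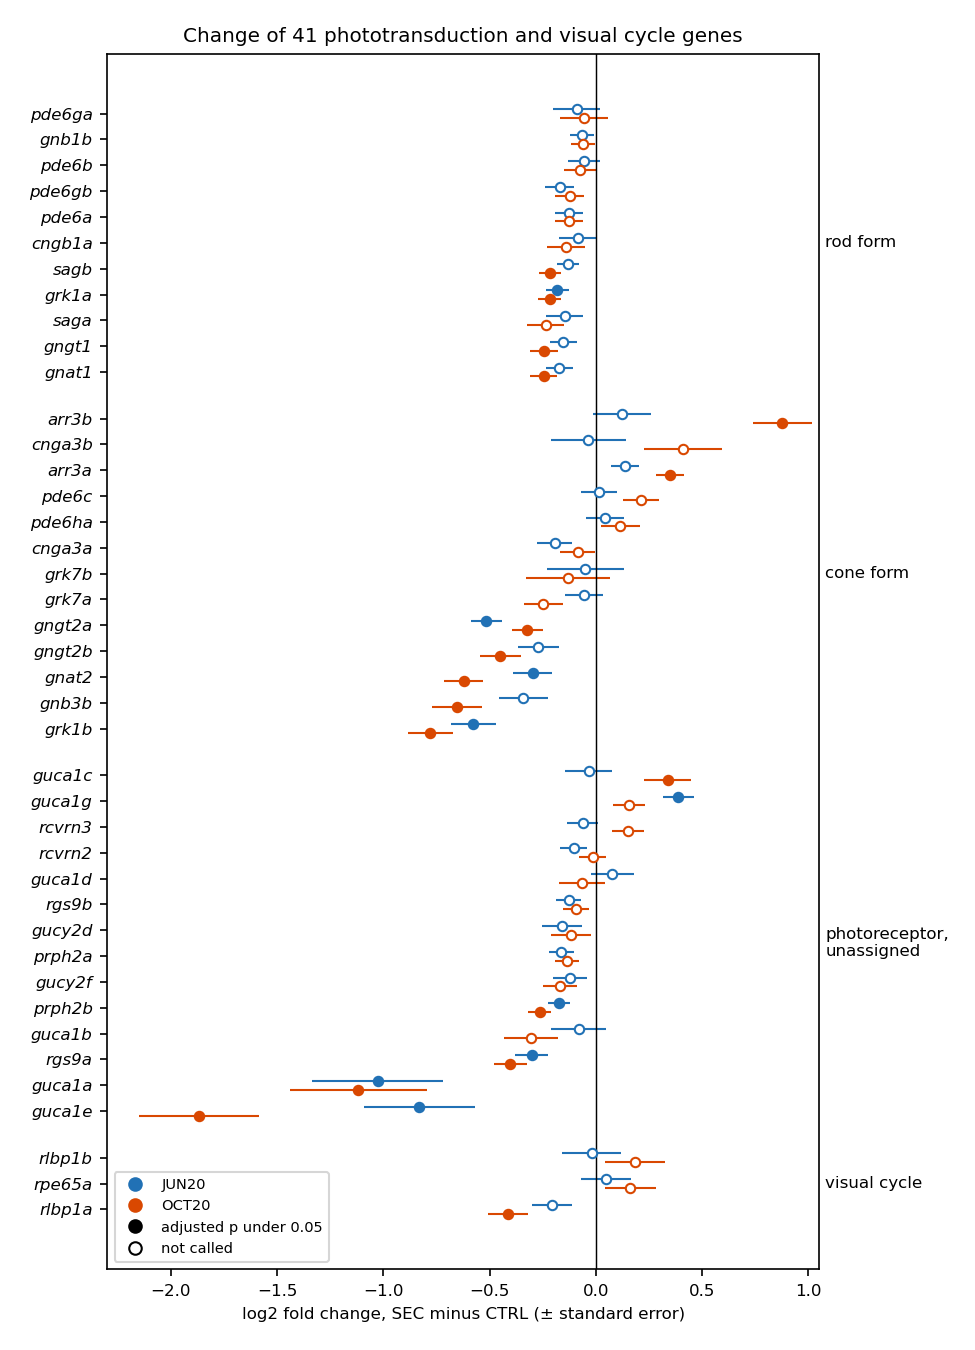
Log2 fold change of SEC over CTRL (x axis, with the standard error as bars) for the 41 members, grouped by rod form, cone form, other photoreceptor genes and visual cycle, with June in blue and October in orange. Filled points passed the adjusted p threshold; the rod forms lie in a narrow band between -0.25 and -0.057, while the cone forms run from -0.78 (grk1b) to 0.88 (arr3b).

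The rod forms moved little and the cone forms moved apart from each other. All 11 rod forms had a negative change in both campaigns, from -0.18 (grk1a) to -0.057 (pde6b) in June and from -0.25 (gnat1) to -0.057 (pde6ga) in October, under TMM factors, RLE factors and library totals alike. Of these 1 was called in June and 4 in October, where 10.8% and 18.0% of all genes tested were called. Their median change was -0.13 and -0.14, against -0.056 and -0.13 for the cone forms. Between the unexposed groups the 11 rod forms also shared 1 sign. All were higher in October CTRL than in June CTRL, by 0.024 to 0.30 with a median of 0.10, and 2 were called. All 11 lens genes were higher there too. That comparison shares its CTRL pools with both extract changes, so the shared signs are not independent. Falls across a whole list were not limited to rod forms. Lens and brain neuron genes, read further below, were negative in 11 of 11 each in June, and in 10 of 11 and 9 of 11 in October. Inner retinal neuron genes were negative in 16 of 19 in June and 13 of 19 in October. Among 13 cone forms 3 were called lower in June, while 5 were called lower and 2 higher in October. Of all genes tested 4.90% were called lower in June, and 8.49% lower and 9.54% higher in October. The SEC pools lay all on one side of the CTRL pools for 2 of 11 rod forms (gnb1b and grk1a) and 4 of 13 cone forms in June, and for 0 and 6 in October, beside the shares of all genes given above. Whether rod and cone forms differ in this was not tested.

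Of 7 transducin subunit genes edgeR called 2 lower in June and 6 in October, and DESeq2 called 4 in June, with gnb3b and gngt2b added, and 6 in October. The edgeR share of all genes called lower was 4.90% in June and 8.49% in October. DESeq2 called more genes lower over the whole table, 1384 in June and 2087 in October, against 1133 and 1963 by edgeR. The gene gnat2, which encodes the cone alpha subunit (ENSDARG00000042529), stood at 353, 394, 368, 353 and 424 CPM in the June CTRL pools and at 335, 301, 334, 269 and 301 in the SEC pools. In October it stood at 377, 367, 319.6, 429 and 375 in CTRL and 255, 275, 272, 211 and 201 in SEC. Every SEC pool lay below every CTRL pool of its campaign, and October SEC replicates 4 and 5 were the lowest of all. The change was -0.30 ± 0.091 (adjusted p = 0.039) in June and -0.62 ± 0.091 (adjusted p = 4.87e-05) in October. Its rod counterpart gnat1 (ENSDARG00000044199) stood at 66.9, 73.6, 69.7, 70.5 and 72.8 CPM in June CTRL and 67.2, 59.4, 63, 62.7 and 61.6 in June SEC. In October gnat1 read 90.4, 86.3, 79.8, 86.7 and 91.3 in CTRL and 68.4, 69.8, 64, 87.3 and 76.8 in SEC. Its groups overlapped in both campaigns, in October through SEC replicate 4, and the change was -0.17 ± 0.062 (adjusted p = 0.0826) in June and -0.25 ± 0.062 (adjusted p = 0.00756) in October. With the October libraries fitted alone the latter was -0.24 (adjusted p = 0.0616).

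Of the beta subunits, gnb3b, the cone form, held 310.1, 335, 294, 318 and 343 CPM in June CTRL and 264, 246, 274, 230.3 and 249 in June SEC. Its October values were 339, 343, 289.8, 399.9 and 313 in CTRL and 228, 247, 267, 180.0 and 151 in SEC. The groups did not overlap in either campaign, and edgeR called the October change, -0.65 ± 0.12 (adjusted p = 0.000553), and not that of June, -0.34 ± 0.12 (adjusted p = 0.0696), which DESeq2 called (adjusted p = 0.0319). The rod form gnb1b, which is also expressed widely outside the retina in vertebrates, held 214, 218, 223, 211 and 226 CPM in June CTRL and 208, 210.2, 207, 211 and 207 in June SEC. In October gnb1b held 196, 239, 224, 259 and 204 in CTRL and 224, 213, 218, 199 and 219 in SEC. The June SEC pools sat just below the CTRL pools and the October groups overlapped, with changes of -0.067 and -0.062 that were not called. The cone gamma subunit gene gngt2a was at 26.8 ± 2.38 CPM in June CTRL and 18.8 ± 1.49 in June SEC (mean ± SD, n = 5), and at 27.5 ± 2.12 and 22 ± 1.86 in October. It fell in both, with changes of -0.52 ± 0.072 (adjusted p = 6.16e-05) and -0.32 ± 0.073 (adjusted p = 0.00312), without overlap of the groups. The changes of its copy gngt2b were -0.27 ± 0.097 (adjusted p = 0.078) in June and -0.45 ± 0.097 (adjusted p = 0.00246) in October. Those of the rod gamma gene gngt1 were -0.15 ± 0.065 (adjusted p = 0.141) and -0.24 ± 0.065 (adjusted p = 0.0108).

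**Figure D2:**
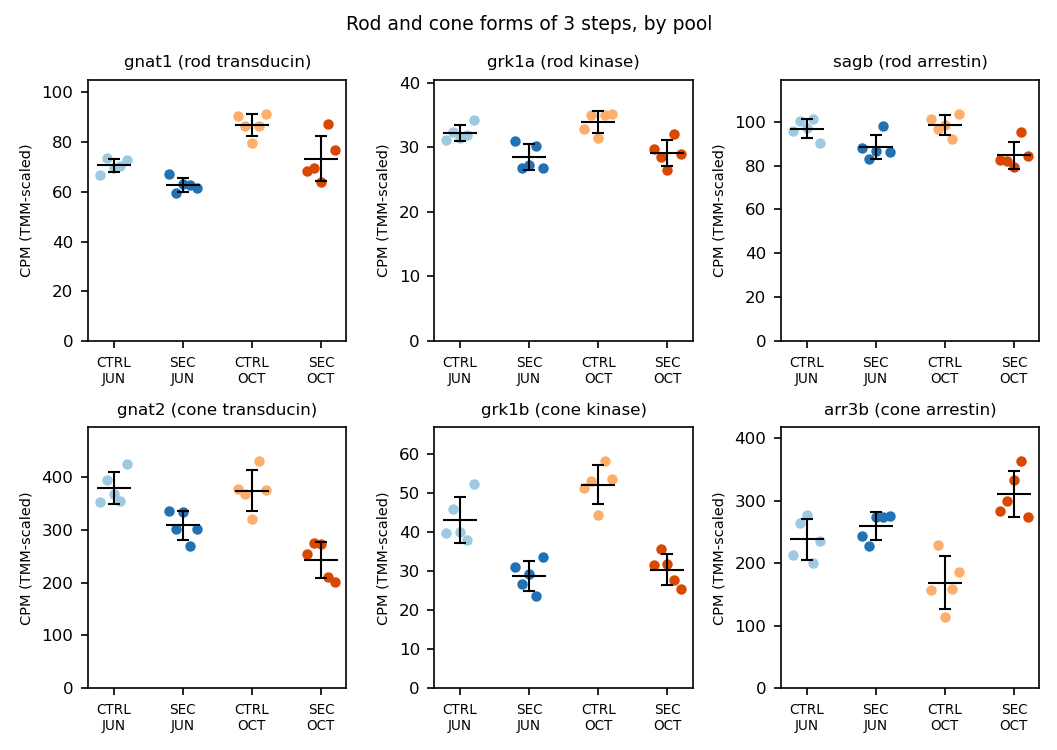
TMM-scaled CPM in each of the 20 pools (points), with group mean and SD, for the rod (top) and cone (bottom) forms of transducin, opsin kinase and arrestin; every y axis starts at 0. The 5 October SEC pools of gnat2 and grk1b lie below, and those of arr3b above, all 5 October CTRL pools.

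Of 6 phosphodiesterase genes 0 were called in either campaign by edgeR or by DESeq2, and 1 in each campaign (pde6gb in June, pde6c in October) had an unadjusted edgeR p under 0.05. The edgeR share of all genes called was 10.8% in June and 18.0% in October. The cone catalytic subunit gene pde6c stood at 303, 330.2, 322, 274 and 331 CPM in June CTRL and 349, 282, 316, 308 and 319 in SEC. October pools held 225, 301, 207, 269 and 258 in CTRL and 309, 312, 302, 279.8 and 256 in SEC. The groups overlapped in both campaigns, with changes of 0.013 ± 0.084 (adjusted p = 0.948) and 0.21 ± 0.084 (adjusted p = 0.0914). The rod inhibitory subunit gene pde6gb held 53.9, 53.2, 52.3, 54.9 and 53.3 CPM in June CTRL and 54.6, 42.4, 46, 46.3 and 48.6 in SEC, and 66.3, 52, 62.7, 63.4 and 65 in October CTRL and 50.6, 55.2, 54.8, 63.2 and 60.5 in SEC. It overlapped too, at -0.17 ± 0.068 (adjusted p = 0.12) and -0.12 ± 0.069 (adjusted p = 0.245). The other 4 (pde6a, pde6b, pde6ga and pde6ha) lay between -0.13 and 0.12 in both campaigns.

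Of 3 channel genes 0 were called by edgeR or DESeq2, with 1 in each campaign at an unadjusted edgeR p under 0.05. Beside them, edgeR called 10.8% of all genes in June and 18.0% in October. The cone channel gene cnga3b stood at 5.25, 4.88, 4.96, 4.75 and 6.11 CPM in June CTRL and 7.21, 4.36, 4.76, 4.15 and 4.9 in SEC, and at 3.7, 4.91, 2.25, 3.61 and 4.94 in October CTRL and 5.37, 6.07, 6.08, 4.57 and 3.89 in SEC. Its changes were -0.035 ± 0.17 (adjusted p = 0.93) and 0.41 ± 0.18 (adjusted p = 0.136), with overlapping groups. The rod channel gene cngb1a read 6.92, 7.55, 6.22, 7.17 and 6.71 CPM in June CTRL and 7.9, 6.19, 6.76, 5.75 and 6.06 in SEC, then 7.45, 7.4, 7.95, 7.45 and 9.46 in October CTRL and 7.14, 6.7, 6.9, 7.69 and 7.67 in SEC. Its changes were -0.086 ± 0.088 (adjusted p = 0.6) and -0.14 ± 0.089 (adjusted p = 0.32), again with overlap. The symbols cnga1a and cnga1b, named after the table was seen and not members, were at -0.24 and -0.14 in June and -0.20 and -0.18 in October, with no call. The cone channel subunit gene cngb3.1, a gene outside the list and named after its values were seen, was called higher in both campaigns, at 0.43 ± 0.13 (adjusted p = 0.0388) and 0.69 ± 0.14 (adjusted p = 0.000926), with its groups apart in both. Its copy cngb3.2 was not called, at -0.056 ± 0.091 (adjusted p = 0.758) and -0.14 ± 0.092 (adjusted p = 0.324). Nor was cngb1b, at 0.049 ± 0.047 (adjusted p = 0.571) and -0.077 ± 0.048 (adjusted p = 0.305), and the groups of both genes overlapped in both campaigns.

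Of 4 arrestin genes 3 were called in October, the cone forms arr3a and arr3b higher and the rod form sagb lower, while 0 were called in June by edgeR or DESeq2, with 2 (arr3a and sagb) at an unadjusted edgeR p under 0.05. Among all genes edgeR called 18.0% in October and 10.8% in June. Zebrafish arr3b, a cone arrestin gene known from short-wavelength cones, held 214, 264, 278, 199 and 235 CPM in June CTRL and 244, 227, 274, 274 and 275 in June SEC. October values were 157, 229, 115, 159 and 185 in CTRL and 284, 299, 333, 363 and 274 in SEC. The June groups overlapped and every October SEC pool lay above every October CTRL pool, with changes of 0.12 ± 0.14 (adjusted p = 0.641) and 0.88 ± 0.14 (adjusted p = 0.000152). The October CTRL mean, 169 ± 42 CPM, was also below the June CTRL mean of 238 ± 32.9, and October SEC stood at 310.4 ± 36.7 (SD, n = 5). The copy arr3a, known from long-wavelength cones in zebrafish, stood at 686, 791, 734, 685 and 738 CPM in June CTRL and 855, 767, 815, 774 and 789 in SEC, and at 606, 677, 479, 602 and 630.3 in October CTRL and 732, 762, 788, 808 and 727 in SEC. Only its October groups were apart, and the changes were 0.14 ± 0.066 (adjusted p = 0.195) and 0.35 ± 0.066 (adjusted p = 0.000586). The rod arrestin gene sagb held 95.6, 100.4, 97, 101 and 90.3 CPM in June CTRL and 87.9, 83.2, 86.7, 97.9 and 86.3 in SEC, and 101, 96.7, 98.7, 92.1 and 103 in October CTRL and 82.6, 82.2, 79.3, 95.4 and 84.3 in SEC. Its groups overlapped through SEC replicate 4 in each campaign, and the changes were -0.13 ± 0.051 (adjusted p = 0.105) and -0.22 ± 0.052 (adjusted p = 0.00478). For the second rod copy, saga, they were -0.15 ± 0.087 (adjusted p = 0.313) and -0.24 ± 0.088 (adjusted p = 0.0675).

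Among the opsin kinases, grk1b, expressed in zebrafish cones, fell most. It stood at 39.7, 45.9, 39.9, 37.9 and 52.3 CPM in June CTRL and 31, 26.8, 29.2, 23.7 and 33.7 in June SEC. October CTRL pools held 51.3, 53.1, 44.5, 58.1 and 53.6 and October SEC pools 31.6, 35.6, 31.8, 27.6 and 25.4. No SEC pool reached its CTRL group in either campaign, and the changes were -0.58 ± 0.11 (adjusted p = 0.00123) and -0.78 ± 0.11 (adjusted p = 2.15e-05). The rod kinase gene grk1a read 31.2, 32.4, 31.5, 31.8 and 34.1 CPM in June CTRL and 31, 26.8, 27.3, 30.1 and 26.8 in June SEC, and 32.8, 35, 31.4, 34.9 and 35.1 in October CTRL and 29.7, 28.4, 26.4, 32 and 29 in October SEC. Its June groups were apart by a narrow margin and its October groups overlapped, with smaller changes of -0.18 ± 0.054 (adjusted p = 0.0337) and -0.22 ± 0.054 (adjusted p = 0.00675). The other cone kinases, grk7a and grk7b, and the recoverin genes rcvrn2 and rcvrn3, whose proteins inhibit opsin kinase at high calcium, were not called. Their changes ran from -0.11 to -0.049 in June and from -0.25 to 0.15 in October.

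The largest changes among the members were falls of the guanylate cyclase activator genes guca1e and guca1a, while the activator genes guca1g, in June, and guca1c, in October, rose by less. The activator gene guca1e stood at 5.04, 5.29, 4.71, 4.87 and 5.12 CPM in June CTRL and 2.91, 2.07, 4.17, 2.19 and 2.64 in June SEC. October values were 5.48, 8.12, 4.43, 10.0 and 4.26 in CTRL and 2.44, 2.06, 2.4, 0.938 and 1.02 in SEC. SEC pools lay below CTRL pools in both campaigns, and the changes were -0.83 ± 0.26 (adjusted p = 0.0471) and -1.87 ± 0.28 (adjusted p = 7.89e-05). The wide October spread followed the division of the libraries. CTRL replicates 1, 3 and 5, of the low side, held 4.26 to 5.48 CPM against 8.12 and 10.0 in the others. SEC replicates 4 and 5, of the low side, held 0.938 and 1.02 against 2.06 to 2.44. In the opposite direction, guca1g held 5.92, 5.77, 5.87, 6.39 and 7.17 CPM in June CTRL and 8.54, 7.96, 8.24, 8.06 and 7.78 in June SEC, and 5.48, 5.46, 5.35, 5.39 and 6.08 in October CTRL and 6.33, 5.67, 6.64, 6.87 and 5.51 in October SEC. Its June groups were apart and its October groups overlapped, with changes of 0.39 ± 0.073 (adjusted p = 0.00139) and 0.16 ± 0.077 (adjusted p = 0.177). For guca1c the June pools held 24.3, 23.2, 22.9, 23.6 and 27.4 CPM in CTRL and 27, 18.6, 24.4, 22.1 and 26.2 in SEC, and the October pools 19.5, 22.1, 15.2, 19.1 and 24.4 in CTRL and 28.6, 28.2, 23.1, 25.2 and 21.9 in SEC. Its groups overlapped in both campaigns, with changes of -0.034 ± 0.11 (adjusted p = 0.888) and 0.34 ± 0.11 (adjusted p = 0.0427); the October call was lost in 6 of 10 fits that left out a library, and with library totals. The low gene guca1a had 4 to 26 counts per library, and its changes were -1.03 ± 0.31 (adjusted p = 0.0341) and -1.12 ± 0.32 (adjusted p = 0.0181). Its groups were apart in June and overlapped in October, and the October call was lost on the low side alone (-0.71, adjusted p = 0.364). Neither the remaining activators guca1b and guca1d nor the cyclase genes gucy2d and gucy2f were called.

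**Figure D3:**
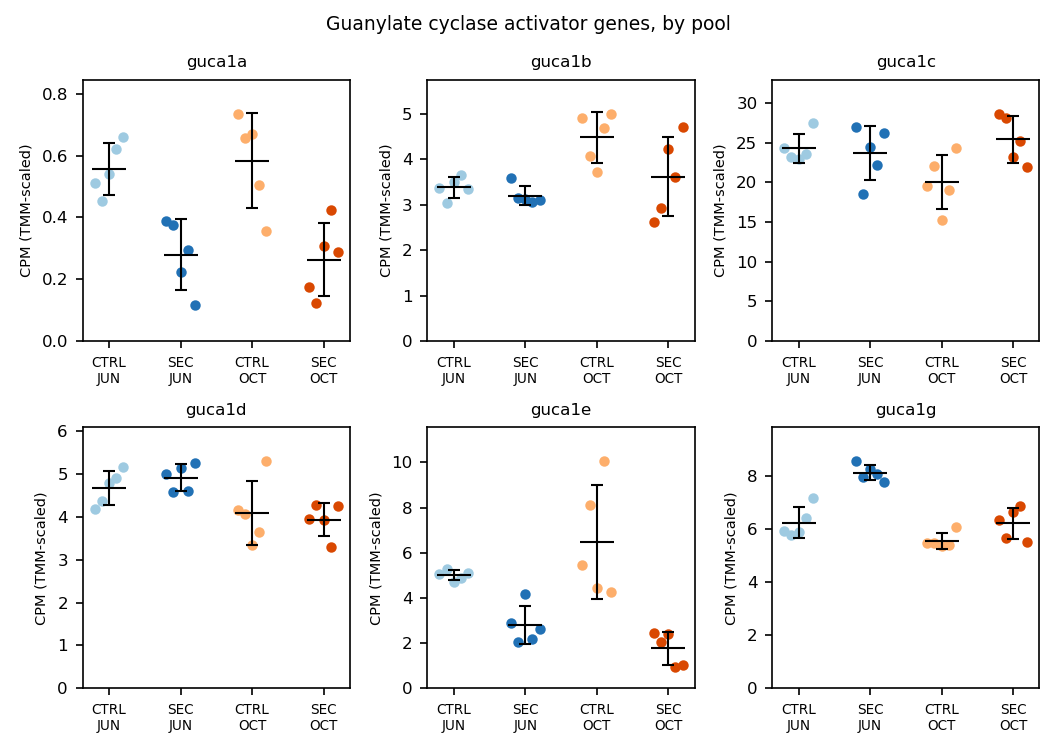
TMM-scaled CPM in each pool (points), with group mean and SD, for the 6 guanylate cyclase activator genes; each y axis starts at 0. SEC pools of guca1e lie below CTRL pools in both campaigns, and those of guca1g lie above them in June.

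Of the pair that speeds transducin shut-off, rgs9a stood at 43.9, 46.2, 43.3, 41.3 and 48.6 CPM in June CTRL and 39.1, 34.1, 38.2, 32.6 and 37 in June SEC, and at 44.5, 50.5, 38.5, 50.7 and 49.1 in October CTRL and 38.1, 37.9, 37.7, 31.8 and 31.1 in October SEC. The groups were apart in both campaigns and the changes were -0.30 ± 0.077 (adjusted p = 0.0131) and -0.40 ± 0.077 (adjusted p = 0.000742), while rgs9b was not called. The disc rim gene prph2b, whose protein shapes outer segment discs, held 138, 145, 134, 129 and 148 CPM in June CTRL and 132, 118, 120.2, 114 and 131 in June SEC, and 153, 139, 141, 164 and 156 in October CTRL and 129, 131, 128, 120.2 and 118 in October SEC. It was apart in October only, with changes of -0.17 ± 0.053 (adjusted p = 0.0392) and -0.27 ± 0.054 (adjusted p = 0.00117), and its copy prph2a was not called. In the visual cycle, which regenerates the retinal chromophore, the retinaldehyde-binding protein gene rlbp1a read 18, 21.8, 18.2, 19.4 and 19.6 CPM in June CTRL and 17.8, 17.8, 17.2, 14.9 and 16.4 in SEC, and 18.7, 22.9, 17.3, 23.4 and 17.1 in October CTRL and 17, 15, 16.5, 13 and 13.2 in SEC. Its groups were apart in both campaigns and only October was called, -0.21 ± 0.093 (adjusted p = 0.168) against -0.41 ± 0.095 (adjusted p = 0.00374). The isomerohydrolase gene rpe65a and the copy rlbp1b were not called.

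Rod and cone forms of a step were next set against each other within each library, as the log2 ratio of their counts with 0.5 added, so that library scaling cancels. The ratios were compared between SEC and CTRL with a two-sided exact permutation test over all assignments of the pools, adjusted over 26 tests (13 pairs in each campaign); the smallest p this design allows is 0.00794. In June 5 of 13 ratios passed and in October 4. The June ratios of gnb1b over gnb3b, saga over arr3a and grk1a over grk1b passed narrowly, each at adjusted p = 0.0459. That value rests on adjustment over 26 tests, where 15 pairs in each campaign had been planned. The ratio of rod to cone form rose for grk1a over grk1b and for gnb1b over gnb3b in both campaigns, and fell for saga over arr3a. These ratios are made of the same counts as the changes above and are no independent evidence of them. For grk1a over grk1b the log2 ratios were -0.64, -0.60, -0.50, -0.73 and -0.61 in October CTRL and -0.091, -0.32, -0.27, 0.21 and 0.19 in October SEC, a shift of 0.56 (exact p = 0.00794, adjusted p = 0.0344), against 0.40 (exact p = 0.0159, adjusted p = 0.0459) in June. All October SEC pools lay above CTRL, and the June groups overlapped. Against the other cone kinase genes the ratios of grk1a did not pass. Those over grk7a shifted by -0.13 (exact p = 0.119, adjusted p = 0.182) in June and 0.032 (exact p = 0.794, adjusted p = 0.794) in October. Those over grk7b shifted by -0.13 (exact p = 0.349, adjusted p = 0.395) and -0.10 (exact p = 0.635, adjusted p = 0.66). Because gnb1b is also expressed outside the retina, its ratio to gnb3b in whole larvae is not one of rods to cones alone. For gnb1b over gnb3b the shift was 0.28 (exact p = 0.0159, adjusted p = 0.0459) in June and 0.62 (exact p = 0.00794, adjusted p = 0.0344) in October. The arrestin ratios went the other way: saga over arr3a shifted by -0.28 (exact p = 0.0159, adjusted p = 0.0459) and -0.59 (exact p = 0.00794, adjusted p = 0.0344). For sagb over arr3b the October log2 ratios were -0.63, -1.24, -0.22, -0.79 and -0.84 in CTRL and -1.78, -1.86, -2.07, -1.93 and -1.70 in SEC, all SEC pools below CTRL, a shift of -1.12 (exact p = 0.00794, adjusted p = 0.0344), and the June shift was -0.26 (exact p = 0.0317, adjusted p = 0.0825). In June gngt1 over gngt2a also passed, at 0.36 (exact p = 0.00794, adjusted p = 0.0344), as did pde6gb over pde6ha, at -0.21 (exact p = 0.00794, adjusted p = 0.0344). The alpha subunit ratio gnat1 over gnat2 did not pass, at 0.13 (exact p = 0.0635, adjusted p = 0.118) and 0.37 (exact p = 0.0476, adjusted p = 0.103). With any single June library left out, 0 June ratios passed; 4 pools against 5 allow no exact p below 0.0159.

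**Figure D4:**
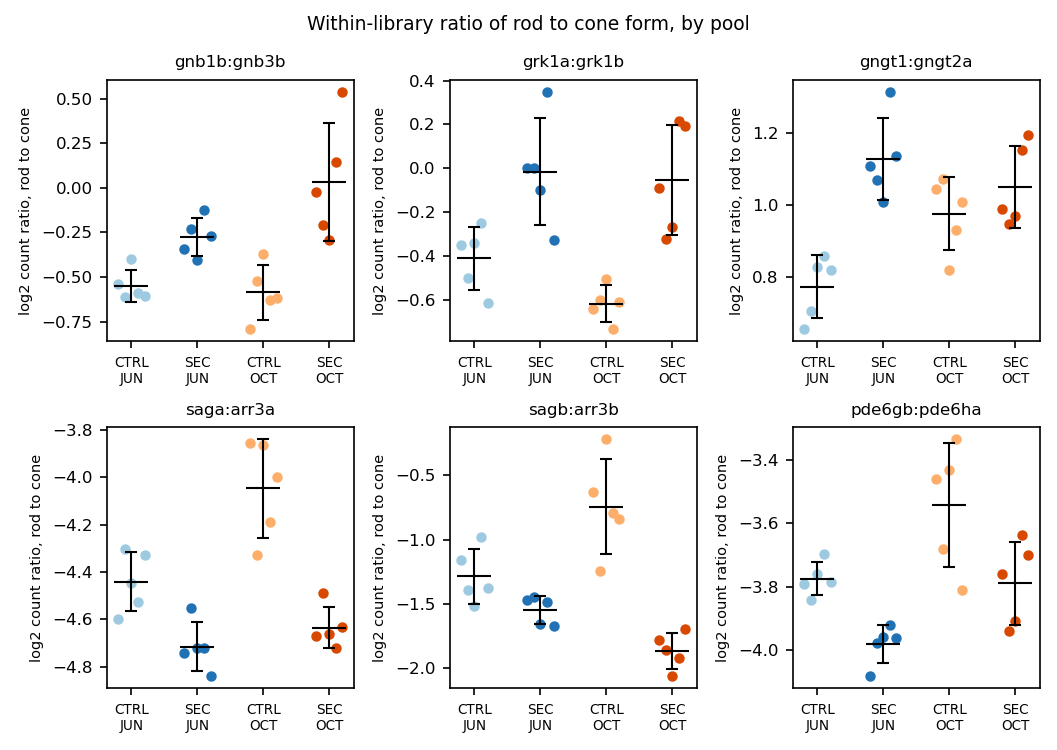
Log2 ratio of rod-form to cone-form counts within each pool (points), with group mean and SD, for the 6 pairs that passed in either campaign; y axes do not start at 0. SEC pools lie higher than CTRL for the beta subunit and kinase pairs in October and lower for both arrestin pairs.

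Whether the effect differed between the campaigns was tested directly, as the October change minus the June change. By edgeR 0 of 41 members were called, where 1.03% of all genes were, with 6 members at an unadjusted p under 0.05, and DESeq2 called 1, arr3b (adjusted p = 0.00608). Over all genes DESeq2 called 606 for this difference, against 239 by edgeR. In edgeR the arr3b difference was 0.76 ± 0.19 (adjusted p = 0.067), and without October CTRL replicate 2 it was 0.89 (adjusted p = 0.0119). Calls made in October and not in June are therefore not shown to be particular to October. Control larvae of the campaigns were also compared. In October CTRL pools, gnat1 (0.30) and gngt1 (0.24) were higher than in June CTRL pools, and pde6c (-0.31), arr3a (-0.28) and arr3b (-0.49) were lower, 5 of 41 members where 5.80% of all genes were called, 2.83% higher and 2.97% lower. Library totals split the genes called there into 491 higher and 786 lower, against 654 and 687. The count was 1 without June CTRL replicate 2, 2 without June CTRL replicate 1, 3 or 5 or October CTRL replicate 1 or 5, 3 without October CTRL replicate 3, and 9 without October CTRL replicate 2. This comparison shares the October CTRL pools with the October effect, so the lower arr3a and arr3b in those pools and their higher values in October SEC are not independent. The same holds for gnat1 and gngt1, called higher in October CTRL and lower in October SEC. Their means were 70.7 and 45.7 CPM in June CTRL, 86.9 and 54.0 in October CTRL and 73.3 and 45.6 in October SEC. Campaign, spawn and day of exposure cannot be told apart.

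Within the October SEC group, replicates 4 and 5, the SEC pools of the low side, were the 2 lowest for 8 of 13 cone forms (gnat2, gnb3b, gngt2b, pde6c, cnga3a, cnga3b, grk1b and grk7a) and for 0 of 11 rod forms. They were the 2 highest for 6 of 11 rod forms (gnat1, gngt1, pde6b, pde6gb, cngb1a and sagb) and for 0 cone forms. Of the 14 photoreceptor genes assigned to neither form they were the 2 lowest for 5 (guca1e, gucy2d, rgs9a, prph2a and prph2b) and the 2 highest for 2 (rcvrn2 and rcvrn3), and they were the 2 lowest for rlbp1a. Over all genes tested they were the 2 lowest for 18.3% and the 2 highest for 17.3%. The unexposed October pools divided too for part of these genes. The share of all genes tested that did so was not counted, so this is not shown to be particular to the members. CTRL replicates 1, 3 and 5, of the low side, all lay below replicates 2 and 4 for gnb3b, gngt2b, pde6c, cnga3a, guca1e, gucy2d, rgs9a and rlbp1a. The same was so for rcvrn3, against its direction in SEC. For pde6b, cngb1a and sagb they all lay above, and for the other genes just named the CTRL sides overlapped. Fits with only the October pools of 1 side, added after the data were seen, called 12 members for the low side, where 12.3% of all genes were called, and 16 for the high side, where 17.9% were. In the same order of sides, the change of gnat2 was -0.78 and -0.57, that of grk1b -0.90 and -0.75, that of arr3b 1.07 and 0.66 and that of guca1e -2.25 and -1.97, all called. The 4 rod forms called in October (gnat1, gngt1, sagb and grk1a) were called on the high side and not on the low side, where they lay between -0.16 and -0.080. Losses were not limited to rod forms. The cone form gngt2a lost its October call on the high side, guca1a on the low side and guca1c on both. The rod gene gnat1 was at -0.080 in the low-side fit (adjusted p = 0.532) and at -0.35 in the other (adjusted p = 0.000162). A test of the difference between sides gave 0.27 ± 0.092 for gnat1 (adjusted p = 0.216) and called 0 of 41 members and 0 of all genes tested, with 4 members (gnat1, gnb1b, gnb3b and rcvrn3) at an unadjusted p under 0.05 in edgeR, the single tool run for it.

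Genes around the cascade were read beside it, and those said to rise or fall in the counts here were called. Over all genes tested 10.8% were called in June, 5.92% higher and 4.90% lower. In October 18.0% were called, 9.54% higher and 8.49% lower. Of 54 other phototransduction and visual cycle genes, 4 rose and 8 fell in June and 8 rose and 8 fell in October. Their sums overlapped in June, at 2111 to 2247 CPM in CTRL and 1959 to 2233 in SEC. In October all SEC sums lay above CTRL, at 2226 to 2331 against 2071 to 2224. The recoverin gene rcvrna changed by -0.41 and -0.48, the disc rim gene rom1a by -0.29 and -0.31, and rbp4l, a retinol-binding protein gene, by 0.19 and 0.70. Opsin genes fell in 4 of 8 in June and 6 of 8 in October, and their summed level was 3380 to 3816 CPM in June CTRL against 2563 to 2865 in SEC, and 3494 to 4440 against 2144 to 2758 in October. Photoreceptor transcription factor genes fell in 5 of 14 in June and 3 of 14 in October, among them the retinal homeobox gene rx2 (-0.38 and -1.33) and neurod1 (-0.53 and -0.42). The gene crx was at -0.20 in June, called, and at -0.11 in October, not called. The median change of this list was -0.14 in June and -0.12 in October. Inner retinal neuron genes were called in 1 of 19 in June and 3 of 19 in October, with sums of 930 to 1002 CPM in June CTRL, 905 to 980 in June SEC, 945 to 999.6 in October CTRL and 969 to 1012 in October SEC. Lens genes fell in 4 of 11 in June and 1 of 11 in October, with sums of 3901 to 4531 CPM against 3375 to 4093 in June and 4228 to 5143 against 4266 to 4411 in October. Brain neuron genes fell in 3 of 11 and 2 of 11, with sums of 2531 to 2598 CPM against 2297 to 2439 in June. In October these sums overlapped, at 2544 to 2744 against 2497 to 2587. Of 8 genes listed for Müller glia 3 rose in October, apoeb (0.56), glula (0.50) and cahz (0.38). A further 4 were not called in October: gfap (-0.12) and slc1a3a (-0.12) had negative changes, slc1a2a (0.11) and slc1a2b (0.084) positive ones. The listed gene rlbp1a fell, a member that in zebrafish is better known from the retinal pigment epithelium. The list summed to 1711 to 1853 CPM in October CTRL and 2127 to 2296 in SEC. In that sum the mean of apoeb went from 534 to 788 CPM and that of glula from 351 to 496. Whole larvae were sequenced, so these counts need not come from Müller glia alone. Of 7 pineal photoreceptor genes 1 fell in June, and 2 fell and 1 rose in October, with aanat2, of melatonin synthesis, at -1.19. The June change of aanat2, -0.43, was not called. Its means were low, 1.28 and 0.954 CPM in June CTRL and SEC and 2.28 and 0.995 in October. It was called higher in October CTRL than in June CTRL (0.84), which is not independent of its October fall. The part of these other cell types in the changes of the members was not tested.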

How the data were processed

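Stranded mRNA libraries were made from pooled whole larvae, per the labels' protocols. The deposited values were raw counts per gene, taken as such because all are whole numbers. The submitters' processing notes name STAR 2.7.8a, CASAVA, SAMtools, DESeq2 (version given as 3.17) and the build GRCz11. For the counting tool, its strand setting and any collapse of molecular identifiers nothing is given in the sources used, so reads shared by near-identical gene copies are uncertain. The files of single samples equalled the table of the series in 20 of 20 libraries.

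Genes were matched by the symbol in the count table. The members, gene lists and tests were chosen with earlier results of these data known. The filter of edgeR (filterByExpr, minimum count 10) kept 23121 genes and removed 9399, leaving at least 99.97% of each library's counts. All 20 libraries were fitted with edgeR 4.0.16 in R 4.3.3 (TMM factors, robust quasi-likelihood F test, 4 group means), with a common biological coefficient of variation of 10.2%. P-values were two-sided, with Benjamini-Hochberg adjustment across every gene tested. The standard error is the absolute log2 change divided by the square root of F. Ratios used 13 of 15 listed pairs, because 2 need cnga1, and were adjusted over 26 tests where 15 pairs had been planned. Full values were given for the transducin alpha and beta genes, for the smallest adjusted p of each step and form, and for members called against the main direction. Both procedures were run on simulated data, with planted shifts above the median called change of the members. Each simulation used a single fixed spread, and that of the ratios left out the adjustment over tests. They do not show how well smaller changes are found. Alternatives were RLE factors, library totals, DESeq2 1.42.0, no filter, a stricter filter (at least 1 CPM in 5 libraries, and 200 counts in total), the replicate number as a block, the campaign's libraries alone, the October division as a term, each library left out, and each October side alone, which was added after the data were seen.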

Additional observations from a re-analysis of the deposited data

Results flagged for a closer look

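Among 216 groups of 5 values, 8 held a highest or lowest pool far from the other 4 by Dixon's criterion (gap over range above 0.71), which chance gives in about 1 in 20 groups. June SEC replicate 1 was the highest pool for 4 genes: cnga3b at 7.21 CPM (others 4.15 to 4.91), guca1b at 3.58 (3.05 to 3.15), gucy2d at 57.97 (48.94 to 49.38) and rcvrn3 at 413.7 (355.1 to 372.0). October CTRL replicate 5 was the highest for cngb1a at 9.46 CPM (7.40 to 7.95) and guca1g at 6.08 (5.35 to 5.48). October CTRL replicate 2 was the lowest for pde6gb at 52.01 CPM (62.67 to 66.27). For the log2 ratio of gnat1 over gnat2, October CTRL replicate 4 was the lowest at -2.31 (others -2.087 to -2.002).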

How the results depend on the processing

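The June count of 9 members called was 5 with library totals, 5 with no filter on low counts and 15 with the June libraries fitted alone, and 4 to 9 with a library left out. Over all genes the same fits called 2524, 2229, 3666 and 1826 to 2216 in that order, against 2501 in the main fit. The October count of 17 stayed within 1.5 times under the alternatives run (12 to 19, and 16 to 18 with a library left out). The count of 12, on the low side alone, came with 2923 genes called over the whole table. The count of 19, with the division as a term, came with 5419, against 4168 in the main fit. The difference between campaigns gave 0 members, 1 with DESeq2 and 0 to 1 with a library left out; the CTRL comparison gave 5, and 1 to 9. With a library left out 0 to 0 June and 4 to 5 October ratios passed. The smallest p was then 0.0159 in the campaign that lost the library, and the adjustment spanned the ratios of both campaigns. Both counts follow in part from this, so they cannot tell which campaign's ratios are the firmer.

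The replicate numbers did not pair the pools: same-numbered pools correlated between -0.355 and 0.228, and 1 of 10 was most like its own number. With the replicate number as a block, 4 June members (without gnat2, grk1a, guca1a, guca1e and prph2b) and 16 October members (without guca1a, -1.13, adjusted p = 0.0702) were called and 0 for the difference, while 0 and 0 ratios passed, because 5 pairs allow no p below 0.0625. Over all genes the calls fell under the block too, from 2501 to 1759 in June and from 4168 to 3338 in October.

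Changes that turned sign, none of them called, were rlbp1b in June at 0.0087 with library totals and rcvrn2 in October at 0.0072 with the division as a term. On the low side alone gnb1b was at 0.019 and grk7b at 0.22, and on the high side pde6ga at 0.13, guca1d at 0.076, rcvrn2 at 0.065 and rcvrn3 at -0.0036. With a library left out, June ranges across 0 were -0.030 to 0.050 for pde6c, -0.044 to 0.081 for pde6ha, -0.026 to 0.14 for rpe65a, -0.19 to 0.029 for cnga3b, -0.10 to 0.035 for grk7b, -0.084 to 0.039 for guca1c and -0.10 to 0.086 for rlbp1b. In October they were -0.049 to 0.041 for rcvrn2, -0.25 to 0.047 for grk7b, -0.11 to 0.025 for pde6ga and -0.13 to 0.050 for guca1d, and for ratios -0.050 to 0.086 (grk1a over grk7a) and -0.24 to 0.015 (grk1a over grk7b). The causes were not tested.

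Over all genes, the difference between campaigns had 239 calls, 606 with DESeq2, 116 with the block and 134 to 330 with a library left out. The CTRL comparison had 1341, 2063 and 704 to 2410, and October 4168 and 2763 fitted alone. Library totals shifted the median change of all genes by -0.0456 to 0.0313 over the 4 comparisons.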
